A study of Mus musculus with 4 samples.

Results

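Nanos2, Nanos3, Dazl, Lin28a, Lin28b and Dnd1 encode RNA-binding proteins of the germline. The 6 genes were taken by their symbols from the gene lists deposited with the libraries, and are 6 of the 27514 genes listed in all 4 libraries. NANOS2 and NANOS3 are zinc finger proteins that bring bound transcripts to the CCR4-NOT deadenylase. NANOS2 keeps spermatogonial stem cells (SSCs) undifferentiated, and NANOS3 is needed for survival of primordial germ cells. DND1 works with NANOS2 on its target transcripts, and DAZL binds germ cell mRNAs and promotes their translation. LIN28A and LIN28B bind the precursors of let-7 microRNAs and stop their maturation, and LIN28A is known in the testis as a protein of undifferentiated spermatogonia, mainly of progenitors.

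The cells were undifferentiated spermatogonia (A_undiff) sorted as E-cadherin+, CD49f+ and c-KIT- from the testes of adult wild-type C57BL/6J mice of 6 to 8 weeks. CTRL mice were untreated, and BU mice had received a single dose of 10 mg/kg busulfan, an alkylating agent that kills many spermatogonia, and were taken at day 10 (D10). A CTRL and a BU library of single cells were made on the 10x platform in each of 2 experiments, each from 3 pooled mice. The spread between mice was therefore not measured, and n is 2 libraries in either group. The labels tie the experiments to different versions of the kit and to separate sequencing lanes, whereas the methods of the study name a single kit version. Transcripts were counted as unique molecular identifiers (UMIs), and a level is given here as CPM, the UMIs of a gene per 1000000 UMIs of the same cells. These are counts of transcript ends, so a gene's level was compared between cells and not with the level of another gene.

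The libraries CTRL 1, BU 1, CTRL 2 and BU 2 held 21136369 to 53579969 UMIs, and 1120 to 3101 cells per library passed the filter of over 1000 genes and under 20% mitochondrial UMIs. The median kept cell held 8066 and 9858 UMIs in experiment 1 and 30931 and 34177 in experiment 2. Depth thus followed the experiment. The germ cell gene Ddx4 was present in each library, at 231 to 322 CPM in the kept cells, and between 124 and 284 cells per library carried spermatid RNA (spermatid-like) and 8 to 54 carried somatic markers (somatic-like). CTRL 2 and BU 2 shared 70 cell barcodes, 6.25% of the kept cells of CTRL 2, against at most 7 for any other pair. Results without the cells of shared barcodes are given where they bear on a result.

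Levels were followed in cells that passed the expression threshold of the study for Gfra1 (the GDNF receptor subunit of SSCs), Sox3 (a transcription factor of progenitors) or Kit (the receptor of differentiating spermatogonia). In the order CTRL 1, CTRL 2, BU 1, BU 2, Gfra1+ cells numbered 585, 214, 865 and 528, Sox3+ cells 1470, 646, 473 and 264, and Kit+ cells 36, 37, 322 and 156. The sort removed cells with c-KIT on the surface, so Kit+ here refers to the transcript and not to the surface protein. Kit+ cells of the CTRL libraries were few, and 24 of the 36 in CTRL 1 and 20 of the 37 in CTRL 2 were also Sox3+. In BU 1 and BU 2, 134 of the 473 and 86 of the 264 Sox3+ cells were also Kit+. The Kit+ cells of CTRL 2 stood apart in other cell types' RNA: the 10 somatic markers summed to 2970 CPM there, against 12.1 to 19.7 CPM in the other libraries, and the 6 spermatid markers to 7653 CPM, against 330 to 775 CPM. The highest somatic markers there were Insl3 (1595 CPM), Cyp11a1 (898 CPM) and Aldh1a1 (325 CPM). The study names interstitial Leydig cells as KIT+, so Kit+ cells need not all be spermatogonia. The part of such cells in the Kit+ sum of CTRL 2 was not tested.

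The 6 genes lie on separate chromosomes, and no exon of another gene overlaps any of them on the same strand in GENCODE M21. On GRCm38, Nanos2 (ENSMUSG00000051965) lies on chromosome 7 from 18987400 to 18988962 on the plus strand. Nanos3 (ENSMUSG00000056155) lies on chromosome 8 from 84173731 to 84185217, Lin28a (ENSMUSG00000050966) on chromosome 4 from 134003330 to 134018841, Lin28b (ENSMUSG00000063804) on chromosome 10 from 45376620 to 45486395 and Dazl (ENSMUSG00000010592) on chromosome 17 from 50279395 to 50293636, all on the minus strand. All are annotated as protein-coding. Exons of Gm45058 and Gm13061 lie opposite those of Nanos2 and Lin28a. No 31-base word of the Nanos2, Nanos3, Lin28a or Dazl exons occurred in another gene, and 0.321% of those of Lin28b did.

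Nanos3 and Lin28a were the genes of the group with the largest differences between CTRL and BU, and the 250 bases before their transcription starts are shown for that reason (RefSeq, GRCm38.p6, minus strand, written 5′ to 3′ on the strand of the gene). The Nanos3 stretch is chr8:84176553-84176802, inside the longer GENCODE model of the gene, and the Lin28a stretch is chr4:134018817-134019066. Capitals mark the E-box letters CANNTG and the SOX core CATTGT on either strand, letters that were chosen with the sequences in view.
Nanos3: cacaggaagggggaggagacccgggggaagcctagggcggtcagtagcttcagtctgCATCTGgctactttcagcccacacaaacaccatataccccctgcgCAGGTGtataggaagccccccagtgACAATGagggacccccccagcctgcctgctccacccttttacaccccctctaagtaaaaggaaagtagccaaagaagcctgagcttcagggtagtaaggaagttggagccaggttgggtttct
Lin28a: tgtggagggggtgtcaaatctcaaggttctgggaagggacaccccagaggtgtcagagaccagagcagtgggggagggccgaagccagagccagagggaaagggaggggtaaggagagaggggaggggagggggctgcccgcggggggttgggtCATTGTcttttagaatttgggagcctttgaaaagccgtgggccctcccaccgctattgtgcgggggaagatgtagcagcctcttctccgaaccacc

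Both stretches held 1 match to CATTGT, letters found in 10.7% of the 32851 mouse promoter stretches of the same length in the RefSeq table. The Nanos3 stretch also held 2 E-boxes and the Lin28a stretch held 0, against at least 1 in 66.2% of all promoters, and no matches overlapped. The letters AGGTCA (a RAR half-site, in 14.0% of promoters) and TATAAA (12.4%) were searched as well and are in neither stretch. G and C made up 56.4% of the Nanos3 and 61.2% of the Lin28a stretch, with a median of 52.4% over all promoters. The matches describe letters and not binding, which was not measured here.

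Nanos3 was lower after BU in each cell class, at 0.266 to 0.611 times the CTRL level of the same experiment in all kept, Gfra1+ and Sox3+ cells. In all kept cells its level was 124 CPM in CTRL 1 and 95.4 CPM in CTRL 2, and 32.9 CPM in BU 1 and 33.1 CPM in BU 2. The groups were well apart, and the BU libraries were nearly equal although their cells differed in depth. The means were 109.6 ± 20.2 CPM in CTRL and 33.0 ± 0.113 CPM in BU (SD, n = 2 libraries). With condition as the only term, the quasi-likelihood test of edgeR, adjusted by the Benjamini-Hochberg method, called none of the 6 genes in all kept cells, and called 0.0% of the 17354 genes tested. At an unadjusted p under 0.05 that fit had 926 genes, and DESeq2 called 119 genes, Nanos3 and Lin28a among them. When the experiment was added as a replicate block, the log2 fold change of Nanos3 was -1.69 ± 0.23 (SE, edgeR adjusted p = 0.0289). The block called 2 of the 6, Nanos3 and Lin28a, and 1.49% of all genes. BU over CTRL was 0.266 in experiment 1 and 0.347 in experiment 2.

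The mix of cells differed as well: Sox3+ cells, which held more Nanos3 than Gfra1+ cells in each library, made up 47.4% and 57.7% of the kept cells of CTRL 1 and CTRL 2, and 23.6% and 20.9% of BU 1 and BU 2. All 5 progenitor markers (Sox3, Neurog3, Rarg, Upp1 and Ddit4) were below both CTRL libraries in both BU libraries, in all kept cells and in each class, and their sum over all kept cells was 385 to 468 CPM in CTRL and 83.4 to 98.0 CPM in BU. Sox3 is both a member of that list and the gene that defines the class. The part of this shift in the difference over all kept cells was not tested, and levels within a class are given next.

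Within Sox3+ cells, Nanos3 stood at 152 CPM in CTRL 1 and 130 CPM in CTRL 2, and at 49.8 CPM in BU 1 and 51.1 CPM in BU 2. All BU values were below all CTRL values, and BU over CTRL was 0.327 and 0.394 in the 2 experiments. In cells that were Sox3+ but neither Gfra1+ nor Kit+ the ratios were 0.432 and 0.583. The Sox3+ cells differed in other markers too: 5 of 7 stem-associated markers and 3 of 4 differentiation markers were above both CTRL libraries in both BU libraries, and 3 of 4 markers of undifferentiated germ cells were below. Kit itself was at 2.05 and 6.61 CPM in the Sox3+ cells of CTRL and at 48.6 and 65.7 CPM in those of BU. The part of these shifts in the level of Nanos3 or Lin28a was not tested. The condition-only fit gave -1.52 ± 0.24 on the log2 scale (edgeR adjusted p = 0.190), and the fit with the replicate block gave -1.52 ± 0.18 (edgeR adjusted p = 0.0232). In these cells the condition-only fit called 0.0% of 14445 genes, none of the 6 among them, with 2028 genes at an unadjusted p under 0.05 and 328 called by DESeq2. The block called 5.69% of the genes and 2 of the 6, Nanos3 and Lin28a. Without CTRL 2, which leaves 1 CTRL library, the condition-only values were -1.68 for Nanos3 and -1.59 for Lin28a. The spermatid markers were lower in the same direction in Sox3+ cells (4 of 6 below both CTRL libraries, sums of 898 and 1279 CPM in CTRL and 313 and 597 CPM in BU). Without the spermatid-like and somatic-like cells the blocked value of Nanos3 was still -1.52 (adjusted p = 0.00795), where 1272 of 14194 genes passed.

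Within Gfra1+ cells, Nanos3 was at 78.9 CPM in CTRL 1 and 60.8 CPM in CTRL 2, against 29.1 CPM in BU 1 and 37.1 CPM in BU 2. The groups did not overlap, yet the estimate of -0.98 ± 0.31 (log2, edgeR adjusted p = 1.00) did not pass, and neither did -0.97 ± 0.26 with the block (edgeR adjusted p = 0.178). Both fits called few genes in these cells: 0.0% of 13632 without the block, with 583 at an unadjusted p under 0.05 and 15 by DESeq2, and 0.066% with it. None of the 6 genes was called in either. In cells that were Gfra1+ but neither Sox3+ nor Kit+, the level was 61.7 and 41.4 CPM in CTRL 1 and CTRL 2 and 25.4 and 36.0 CPM in BU 1 and BU 2, so that the BU over CTRL ratio was 0.411 in experiment 1 and 0.869 in experiment 2. The lower level of Nanos3 in these cells was therefore small in experiment 2.

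Kit+ cells showed the widest range for Nanos3. The level was 172 CPM in CTRL 1, 49.7 CPM in CTRL 2, 11.7 CPM in BU 1 and 15.4 CPM in BU 2. The groups did not overlap, but the CTRL values rest on 36 and 37 cells and on 57 and 56 Nanos3 UMIs, and lay far apart from each other. The condition-only fit gave -3.01 ± 0.65 (log2, edgeR adjusted p = 0.460) and the block -2.76 ± 0.49 (edgeR adjusted p = 0.0253). In Kit+ cells 5 of the 6 genes passed the filter on low counts. The condition-only fit called 0 of these and 0.0% of 11030 genes, with 909 genes at an unadjusted p under 0.05 and 46 called by DESeq2, Nanos3 among them. The block called 2 of the 5, Nanos3 and Lin28a, against 0.952% of all genes. Without CTRL 2 the condition-only value of Nanos3 was -3.64 and without CTRL 1 it was -1.77, each with 1 CTRL library left. With the Kit+ cells limited to those in no other class, 10 in CTRL 1 and 15 in CTRL 2, neither fit called Nanos3 or Lin28a. Somatic-like cells of BU 2 held 11.2 CPM of Nanos3, a level close to that of the Kit+ cells after BU.

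**Figure D1:**
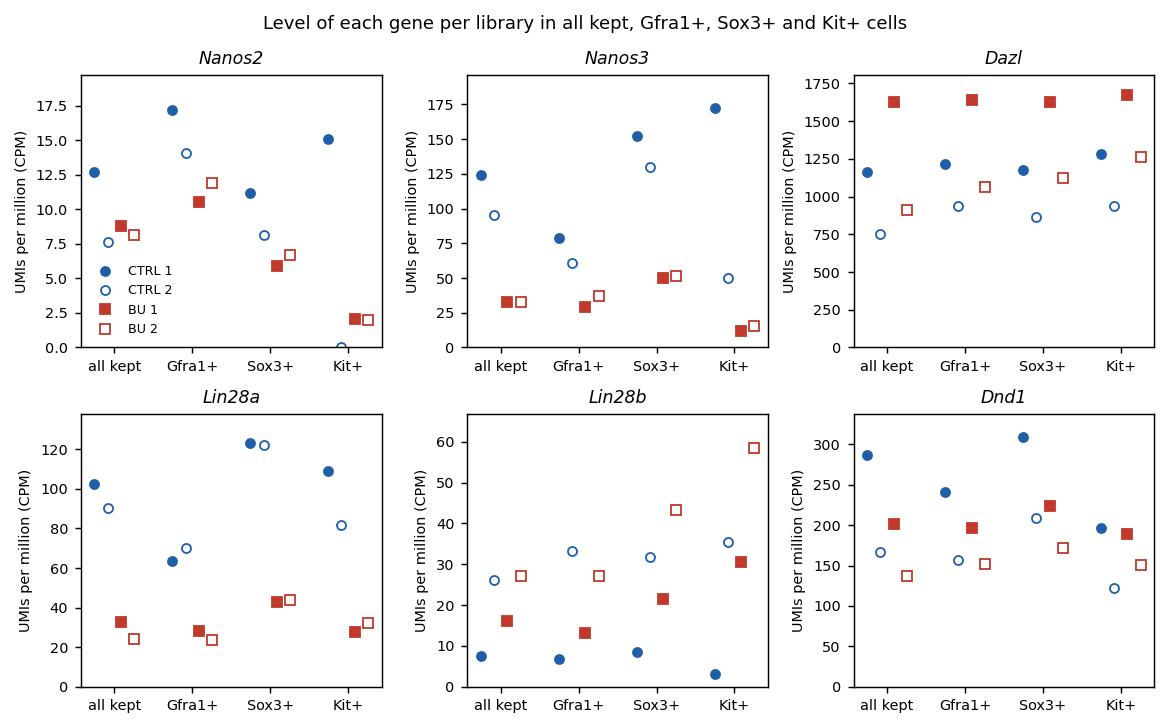
Level of each gene (CPM, linear axis from 0) in all kept, Gfra1+, Sox3+ and Kit+ cells. Each point is 1 library, CTRL 1 and CTRL 2 in blue, BU 1 and BU 2 in red. The BU libraries sit below the CTRL libraries for Nanos3 and Lin28a in each class, for example at 49.8 and 51.1 CPM against 152 and 130 CPM for Nanos3 in Sox3+ cells.

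Lin28a was lower after BU by about as much as Nanos3, with less spread within a group in Sox3+ and Gfra1+ cells. In all kept cells it was at 103 CPM in CTRL 1 and 90.1 CPM in CTRL 2, and at 32.5 CPM in BU 1 and 24.2 CPM in BU 2. The groups did not overlap, with means of 96.4 ± 8.90 CPM in CTRL and 28.3 ± 5.89 CPM in BU (SD, n = 2 libraries). The log2 fold change was -1.74 ± 0.32 with condition only (edgeR adjusted p = 0.869) and -1.75 ± 0.22 with the replicate block (edgeR adjusted p = 0.0289). BU over CTRL was 0.317 in experiment 1 and 0.268 in experiment 2. With the cells of shared barcodes left out, the blocked values were -1.87 for Lin28a and -1.79 for Nanos3 (edgeR adjusted p = 1.14e-05 and 2.78e-05). In that fit 1461 of 17032 genes passed.

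In Sox3+ cells Lin28a was nearly the same in the libraries of a group, at 123 and 122 CPM in CTRL 1 and CTRL 2 and at 42.9 and 43.7 CPM in BU 1 and BU 2. The 2 experiments gave BU over CTRL ratios of 0.349 and 0.358. The blocked fit gave -1.54 ± 0.17 (log2, edgeR adjusted p = 0.0232), against an edgeR adjusted p of 0.190 with condition only. When cells in more than 1 class were left out, Lin28a passed with the block (-1.27, adjusted p = 0.0230) and Nanos3 did not (-1.0, adjusted p = 0.0545). In that fit 187 of 13535 genes passed.

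In Gfra1+ cells Lin28a was at 63.5 and 70.3 CPM in CTRL 1 and CTRL 2 and at 28.1 and 23.5 CPM in BU 1 and BU 2. BU was lower in both experiments, with ratios of 0.443 and 0.334. The blocked value of -1.29 ± 0.23 missed the threshold (log2, edgeR adjusted p = 0.0647) and passed it without the spermatid-like and somatic-like cells (-1.30, adjusted p = 0.00912). With the block and the class set on thinned cells both Lin28a (-1.22, adjusted p = 0.00212) and Nanos3 (-0.98, adjusted p = 0.0231) passed. These 2 alternatives called more genes of any kind, 213 of 13046 without the spermatid-like and somatic-like cells and 329 of 12885 with thinned cells. The blocked fit itself called 9 of 13632. The 10 somatic markers summed to 19.5 and 124 CPM in the Gfra1+ cells of CTRL and to 23.9 and 115 CPM in those of BU. The 6 spermatid markers moved with Lin28a and Nanos3 in these cells, from 1154 to 497 CPM in experiment 1 and from 2420 to 1071 CPM in experiment 2. Kit+ cells held 109 and 81.7 CPM of Lin28a in CTRL 1 and CTRL 2 and 27.8 and 32.2 CPM in BU 1 and BU 2, a difference called with the block (-1.67 ± 0.34, edgeR adjusted p = 0.0379) and not without it (edgeR adjusted p = 0.460). The condition-only value in Kit+ cells was -1.35 without CTRL 1 and -1.85 without CTRL 2, each with 1 CTRL library left.

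**Figure D2:**
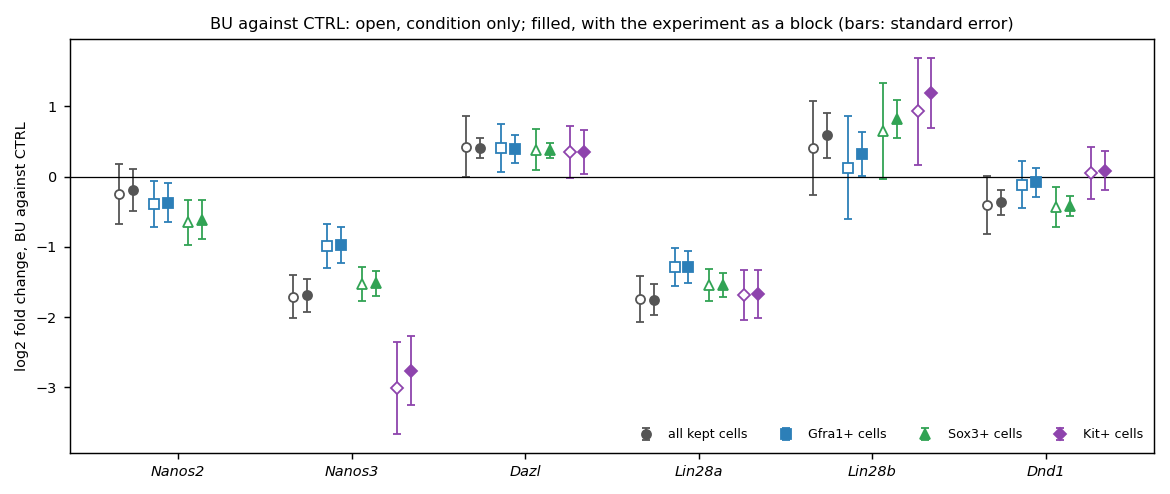
Log2 fold change of BU against CTRL for each gene in 4 sets of cells, with its standard error as bars. Open symbols are the fit with condition only and filled symbols the fit with the experiment as a block, and Nanos2 was not fitted in Kit+ cells. Nanos3 and Lin28a lie below 0 in each set of cells, at -1.69 and -1.75 in all kept cells with the block, whereas the bars of Dnd1 in Gfra1+ and Kit+ cells cross 0.

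Lin28b, the paralog of Lin28a, was not lower after BU in all kept, Sox3+ or Kit+ cells of either experiment. Its level followed the experiment: in all kept cells it was 7.51 CPM in CTRL 1 and 16.1 CPM in BU 1, and 26.0 CPM in CTRL 2 and 27.1 CPM in BU 2. In Sox3+ cells it was 8.41 and 21.5 CPM in experiment 1 and 31.7 and 43.3 CPM in experiment 2, higher in BU in each. In cells that were Sox3+ but neither Gfra1+ nor Kit+, CTRL and BU held 8.03 and 15.7 CPM in experiment 1. In experiment 2 these cells held 30.4 CPM in CTRL and 26.9 CPM in BU, so BU was lower there. The groups overlapped in all kept, Gfra1+ and Sox3+ cells. No fit of all 4 libraries called it, and the blocked estimates were 0.59 ± 0.32 in all kept cells, 0.32 ± 0.31 in Gfra1+, 0.82 ± 0.27 in Sox3+ and 1.19 ± 0.50 in Kit+ cells (log2, edgeR adjusted p of 0.361, 0.715, 0.119 and 0.349). In Gfra1+ cells BU over CTRL was 1.89 in experiment 1 and 0.820 in experiment 2, so the experiments differed in direction there as well. The condition-only value depended on which CTRL library was kept. Without CTRL 2 it was 1.88 in Sox3+ and 3.89 in Kit+ cells, and without CTRL 1 it was -0.01 and 0.43. These fits leave 1 CTRL library and have no term for the experiment, so the difference between the experiments is part of the values.

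Nanos2 was the lowest-counted gene of the group, with 184 to 428 UMIs in all kept cells of a library. The level was 12.7 CPM in CTRL 1, 7.66 CPM in CTRL 2, 8.77 CPM in BU 1 and 8.17 CPM in BU 2. CTRL and BU overlapped, and the blocked difference was -0.19 ± 0.30 (log2, edgeR adjusted p = 0.772). In Gfra1+ cells Nanos2 was at 17.2 and 14.1 CPM in CTRL 1 and CTRL 2 and at 10.5 and 11.9 CPM in BU 1 and BU 2. There the groups did not overlap, but the difference did not pass the threshold (-0.37 ± 0.28 with the block, edgeR adjusted p = 0.636). In Sox3+ cells the levels were 11.2, 8.15, 5.88 and 6.70 CPM in the same order (-0.62 ± 0.28, edgeR adjusted p = 0.211).

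Dazl was abundant and slightly higher in BU. In all kept cells it stood at 1164 CPM in CTRL 1 and 752 CPM in CTRL 2, and at 1626 CPM in BU 1 and 913 CPM in BU 2. The groups overlapped, since the libraries of experiment 1 were higher than those of experiment 2, but BU exceeded CTRL within each experiment in all kept, Gfra1+, Sox3+ and Kit+ cells, with ratios of 1.14 to 1.4. The blocked estimates were 0.41 ± 0.15 in all kept, 0.40 ± 0.20 in Gfra1+, 0.38 ± 0.10 in Sox3+ and 0.36 ± 0.31 in Kit+ cells (log2), and none passed (edgeR adjusted p of 0.200, 0.464, 0.0843 and 0.734). Somatic-like cells held 0 and 78.6 CPM of Dazl in CTRL 1 and CTRL 2 and 49.7 and 22.3 CPM in BU 1 and BU 2, far below the germ cells of the same libraries.

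Dnd1 (ENSMUSG00000044595) is encoded on chromosome 18 from 36763671 to 36766214 on the minus strand of GRCm38, opposite an exon of Wdr55, and 3.25% of its 31-base words also occur in the pseudogene Dnd1-ps. Its level in all kept cells was 287 CPM in CTRL 1, 167 CPM in CTRL 2, 201 CPM in BU 1 and 138 CPM in BU 2. BU was lower than CTRL in each experiment, by less than CTRL 1 and CTRL 2 differed from each other. The blocked estimate was -0.37 ± 0.18 in all kept cells and -0.42 ± 0.14 in Sox3+ cells (log2, edgeR adjusted p = 0.33 and 0.127). In Gfra1+ cells the levels were 241, 157, 196 and 151 CPM in CTRL 1, CTRL 2, BU 1 and BU 2, and in Kit+ cells 197, 122, 189 and 150 CPM. In neither class was a difference resolved (-0.08 ± 0.20 and 0.09 ± 0.28, edgeR adjusted p = 0.911 and 0.944).

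To compare the cell classes with each other, cells above the threshold for exactly 1 of Gfra1, Sox3 and Kit were summed in each library, and the library was a term of the fit. The Kit-only sums of CTRL 1 and CTRL 2 hold 10 and 15 cells, so contrasts with Kit-only cells lean on BU 1 (152 cells) and BU 2 (53 cells). Those of CTRL 2 come from the Kit+ cells in which somatic and spermatid markers were high. Nanos3 and Lin28a were the 2 genes of the 6 that were called between Gfra1-only and Sox3-only cells, both higher in Sox3-only cells. In this contrast 13.6% of 12213 genes passed. Nanos3 went from 61.7 to 156 CPM in CTRL 1, from 41.4 to 137 CPM in CTRL 2, from 25.4 to 67.2 CPM in BU 1 and from 36.0 to 80.0 CPM in BU 2. The rise was 2.22 to 3.31 times in each library (1.46 ± 0.23 on the log2 scale, edgeR adjusted p = 0.00185). Without the library as a term neither this call nor that of Lin28a was made (adjusted p = 0.112 and 0.0607).

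Lin28a rose from Gfra1-only to Sox3-only cells by 1.91 to 2.92 times, from 46.3 to 126 CPM in CTRL 1, from 42.7 to 125 CPM in CTRL 2, from 27.3 to 52.3 CPM in BU 1 and from 21.2 to 52.6 CPM in BU 2 (1.38 ± 0.17, edgeR adjusted p = 0.000459). Cells with both Gfra1 and Sox3 lay between the single classes in each library for both genes. For Nanos3 they held 116 and 84.1 CPM in CTRL 1 and CTRL 2 and 59.5 and 62.3 CPM in BU 1 and BU 2. For Lin28a they held 99.99 and 103 CPM in CTRL and 39.0 and 33.7 CPM in BU.

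**Figure D3:**
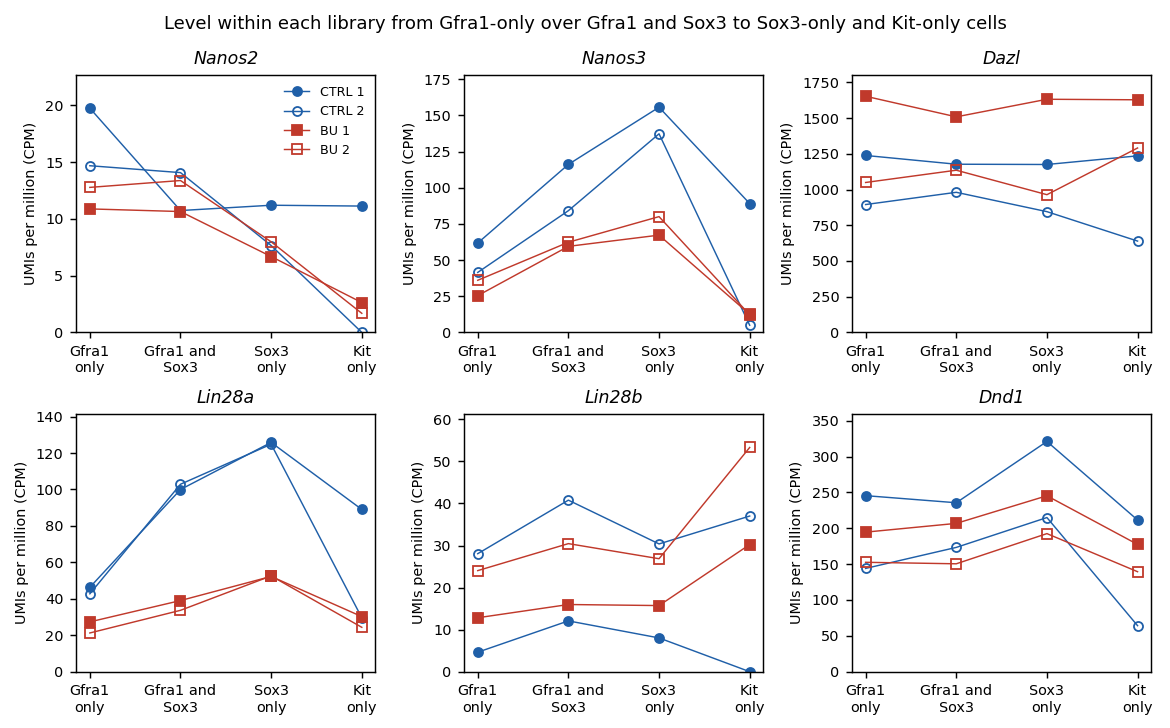
Level of each gene (CPM, linear axis from 0) in cells above the threshold for Gfra1 only, Gfra1 and Sox3, Sox3 only and Kit only, with a line for each library. Kit-only cells number 10 and 15 in CTRL 1 and CTRL 2. Nanos3 and Lin28a rise from left to right up to the Sox3-only cells in each library and are lower in the Kit-only cells, and Nanos2 is lower in Sox3-only than in Gfra1-only cells in each library.

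Nanos2 had the opposite sign. Sox3-only cells held 0.521 to 0.625 times the level of Gfra1-only cells in the 4 libraries, from 19.8 to 11.2 CPM in CTRL 1, from 14.7 to 7.65 CPM in CTRL 2, from 10.9 to 6.68 CPM in BU 1 and from 12.8 to 7.98 CPM in BU 2. The estimate of -0.72 ± 0.25 missed the threshold (log2, edgeR adjusted p = 0.0797). It passed with DESeq2 (-0.75, adjusted p = 0.0149), without CTRL 2 (-0.71, edgeR adjusted p = 0.00925) and without the spermatid-like and somatic-like cells (-0.86, edgeR adjusted p = 0.000203). Dnd1, like Nanos3, had a positive estimate and was 1.26 to 1.49 times higher in Sox3-only cells (0.48 ± 0.15, edgeR adjusted p = 0.0599). Dnd1 passed in the same 3 alternatives, with 0.45, 0.38 and 0.40 on the log2 scale. In these, 2346 of 12213, 3349 of 11997 and 4205 of 11679 genes passed. Dnd1 also passed with mt- UMIs under 10%, without high-UMI cells, with classes set on thinned cells and with cells counted in each of their classes (0.34 to 0.49). There 1734 of 12148, 2216 of 12182, 2066 of 12229 and 2957 of 13759 genes passed, in the same order. Dazl (-0.01 ± 0.12) and Lin28b (0.36 ± 0.19) showed no difference that the test resolved.

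From Sox3-only to Kit-only cells 4 of the 6 genes fell, in a contrast in which 14.7% of genes passed. The log2 fold change was -2.75 ± 0.32 for Nanos3, -1.93 ± 0.43 for Nanos2, -1.28 ± 0.20 for Lin28a and -0.86 ± 0.17 for Dnd1 (edgeR adjusted p = 0.00223, 0.0184, 0.00492 and 0.0118). Nanos3 was at 12.5 CPM in BU 1 and 12.2 CPM in BU 2, but at 89.0 CPM (8 UMIs) in the 10 cells of CTRL 1. The CTRL 2 value of 4.93 CPM rests on 2 UMIs, in cells drawn from Kit+ cells with high somatic marker RNA. Without the spermatid-like and somatic-like cells 4 of the 6 genes were lower and 1 was higher, where 3455 of 11679 genes passed. Lin28b was 1.92, 1.22 and 1.98 times higher in BU 1, CTRL 2 and BU 2 (0.61 ± 0.23, adjusted p = 0.0896). These calls depended on the libraries in the fit, as did the calls over all genes. Without BU 2 none of the 6 genes passed (edgeR adjusted p of 0.0700 for Nanos3 and 0.0829 for Lin28a), where 3 of 12120 genes did. Without BU 1 Nanos3 alone did (-2.88, adjusted p = 0.0462), where 84 of 12508 genes passed. Without CTRL 1 Dnd1 did not pass (-0.89, adjusted p = 0.0514), where 939 of 12556 genes did. Without CTRL 2 Lin28b passed as well (0.76, adjusted p = 0.0102), where 3028 of 11997 genes did.

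Against Gfra1-only cells, Kit-only cells held less Nanos2 (-2.66 ± 0.42, edgeR adjusted p = 0.00162) and Nanos3 (-1.28 ± 0.33, adjusted p = 0.0182) and more Lin28b (0.97 ± 0.22, adjusted p = 0.0108), 3 of the 6 genes where 23.4% of all genes passed. Lin28a, Dnd1 and Dazl were not called (0.10 ± 0.21, -0.38 ± 0.17 and -0.09 ± 0.13). The Nanos2 sums in Kit-only cells were 4 UMIs in BU 1 and in BU 2, 1 UMI in CTRL 1 and 0 in CTRL 2. Lin28b in Kit-only cells was 30.2 CPM in BU 1, 53.3 CPM in BU 2 and 37.0 CPM in CTRL 2, and 0 in CTRL 1. Without BU 2 none of the 3 calls was kept (edgeR adjusted p = 0.0528 for Nanos2, 0.177 for Nanos3 and 0.143 for Lin28b), and without BU 1 Nanos2 was the call that stayed (-3.02, adjusted p = 0.0271). Over all genes, 665 of 12120 passed without BU 2 and 609 of 12508 without BU 1. With classes set on thinned cells Nanos3 was at -0.32 and Lin28b at 0.65 (adjusted p = 0.596 and 0.0715).

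The order of the classes thus differed by gene. For Nanos3 it was Sox3-only, Gfra1-only and Kit-only cells from high to low in the fit of all libraries. The step from Gfra1-only to Kit-only cells had the reverse direction in CTRL 1 (61.7 and 89.0 CPM) and was not called with classes set on thinned cells, without BU 1 or without BU 2. For Lin28a Sox3-only cells were highest, and Gfra1-only and Kit-only cells did not differ beyond their error. For Nanos2 the order was Gfra1-only, Sox3-only and Kit-only, with the first step not resolved. Lin28b ran from Kit-only to Sox3-only to Gfra1-only cells, where the ends differed by the test, subject to the same limits. Dnd1 was called between Sox3-only and Kit-only cells alone, and Dazl between no pair of classes.

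Whether the effect of BU differed between Sox3-only and Gfra1-only cells was tested as an interaction, in which 0 of the 6 genes and 0.0246% of all genes passed edgeR's test (816 genes at an unadjusted p under 0.05, and 5 called by DESeq2). The difference of the BU effects was -0.41 ± 0.28 for Nanos3 and -0.49 ± 0.21 for Lin28a on the log2 scale (edgeR adjusted p = 0.887 and 0.720). The unadjusted p of Lin28a was 0.0423 in the same fit. For the other genes the difference was between -0.29 and 0.06. A larger fall in Sox3+ than in Gfra1+ cells was thus not shown for any of them.

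Shares of cells with a UMI depend on depth, so cells were also compared at 5000 randomly drawn UMIs each, without the shallower cells, which left 2826, 1928, 1007 and 1170 cells of CTRL 1, BU 1, CTRL 2 and BU 2. In Sox3+ cells a Nanos3 UMI was found in 49.1% (exact binomial 95% interval 46.4 to 51.7) of CTRL 1 and 41.8% (38.0 to 45.8) of CTRL 2, and in 17.1% (13.8 to 20.9) of BU 1 and 21.2% (16.4 to 26.7) of BU 2. The intervals, which cover counting error only, are apart. Without thinning the shares were 67.8%, 91.8%, 31.1% and 56.8% in the same order, and BU was still lower in each experiment. The exact permutation test of 2 against 2 libraries cannot give a two-sided p under 0.33 and was not used for calls.

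Lin28a gave the same picture at 5000 UMIs per cell, with 45.1% and 43.1% of the Sox3+ cells of CTRL 1 and CTRL 2 and 19.3% and 15.8% of those of BU 1 and BU 2 (unthinned 64.8%, 91.2%, 32.1% and 66.7%). In Gfra1+ cells the share with Nanos3 was 27.3% and 30.1% in CTRL and 11.5% and 15.6% in BU, and that with Lin28a was 23.7% and 23.9% in CTRL and 13.9% and 8.59% in BU. The unthinned shares in Gfra1+ cells were 38.8% and 67.8% against 23.0% and 60.2% for Nanos3, and 33.7% and 61.7% against 23.9% and 47.5% for Lin28a. Over the libraries of a group, the mean difference between BU and CTRL was -26.3 points for Nanos3 and -26.5 points for Lin28a in Sox3+ cells, and -15.2 and -12.5 points in Gfra1+ cells.

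Somatic-like cells, which should lack these transcripts, served as the background of free RNA. Spermatid-like cells were planned for the same use but held the transcripts. In CTRL 1 they held 94.6 CPM of Nanos3, 84.4 CPM of Lin28a and 884 CPM of Dazl. Dazl was at 1555 CPM in those of BU 1, 147 CPM in CTRL 2 and 237 CPM in BU 2. Their Zbtb16, a marker of undifferentiated germ cells, was at 172 and 178 CPM in CTRL 1 and BU 1. Leaving out spermatid-like cells thus also removed spermatogonial RNA. At 5000 UMIs, 0 of the 53 somatic-like cells of BU 2 held Nanos3, Lin28a, Lin28b or Nanos2, which allows a share of up to 5.66%. In CTRL 2, 2 of 19 held Nanos3 (10.5%) and 0 held Lin28a, which allows up to 15.8%, and experiment 1 had 1 and 2 such cells. The shares of Nanos3 and Lin28a in Sox3+ cells were above these values in both libraries of experiment 2, and experiment 1 had too few somatic-like cells for a background of its own. The share of Nanos3 in Kit+ cells after BU was 3.76% in BU 1 and 5.16% in BU 2. The BU 2 value is not above the limit of 5.66%, which rests on 53 cells and cannot tell a low level from background. The share of Nanos2 was 8.08% and 8.13% in the Gfra1+ cells of CTRL 1 and CTRL 2 and 4.49% and 5.92% in those of BU 1 and BU 2 (unthinned 11.97%, 30.4%, 9.48% and 32.2%). For Nanos2 these limits rest on few cells and do not set it apart from background, but over all their UMIs somatic-like cells held 0 Nanos2 UMIs of 559626 in CTRL 2 and 0 of 986548 in BU 2, against 14.1 and 11.9 CPM in the Gfra1+ cells. The median depth before thinning was 16387 UMIs for these somatic-like cells of BU 2, and 38647 UMIs for the Gfra1+ cells.

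**Figure D4:**
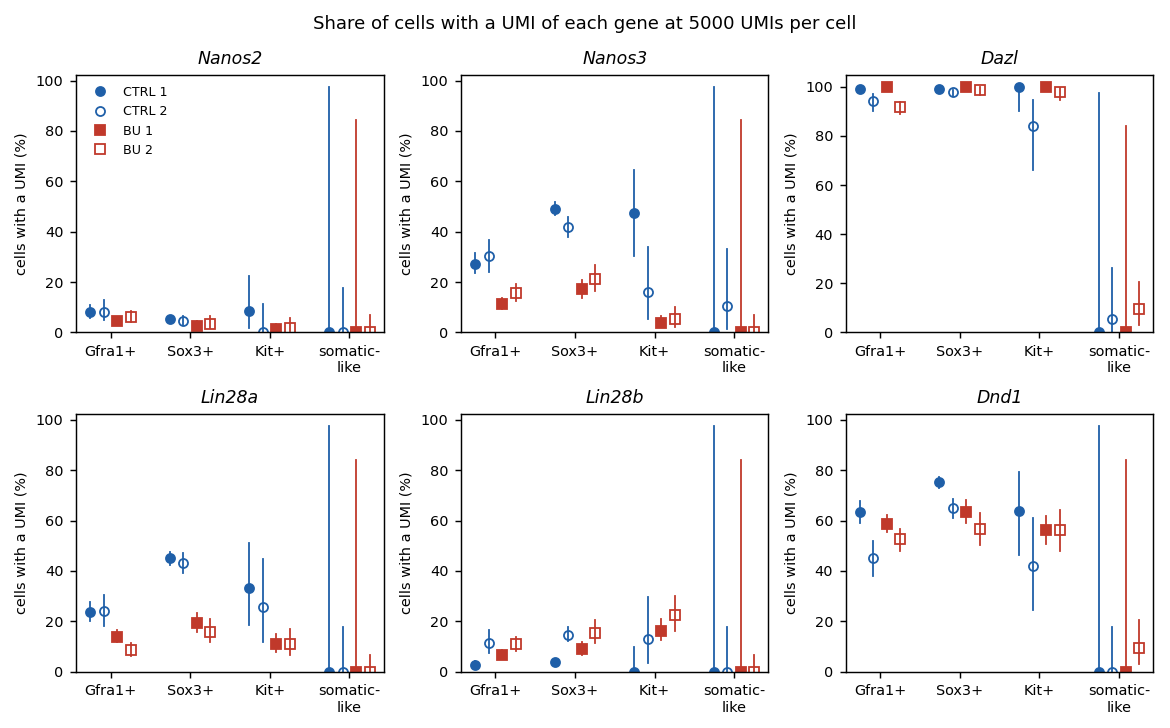
Share of cells (percent, linear axis from 0) with at least 1 UMI of each gene at 5000 UMIs drawn per cell, in Gfra1+, Sox3+, Kit+ and somatic-like cells, with exact binomial 95% intervals as bars. Each point is 1 library, and the somatic-like points of CTRL 1 and BU 1 hold 1 and 2 cells. Nanos3 and Lin28a were found in more of the Sox3+ cells of CTRL (41.8% to 49.1%) than of BU (15.8% to 21.2%).

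Dazl was found in nearly all germ cells at this depth, in 99.2% and 94.3% of the Gfra1+ cells of CTRL 1 and CTRL 2 and in 99.9% and 91.8% of those of BU 1 and BU 2, but in 0 of 1, 1 of 19, 0 of 2 and 5 of 53 somatic-like cells. Without thinning these Gfra1+ shares were 99.1%, 96.3%, 99.2% and 94.5%. Dnd1 was found in 63.5% and 45.0% of the Gfra1+ cells of CTRL 1 and CTRL 2 and in 58.7% and 52.5% of those of BU 1 and BU 2 (unthinned 79.7%, 93.5%, 83.4% and 92.4%). In Gfra1+ cells neither share separated CTRL from BU. In Sox3+ cells Dnd1 was found in 75.2% and 64.9% of CTRL and in 63.6% and 56.8% of BU (unthinned 89.3%, 98.0%, 87.7% and 96.6%), so both BU libraries were below both CTRL libraries, and the mean difference was -9.88 points. Lin28b was found in more Kit+ than Gfra1+ cells after BU, with 16.3% against 6.61% in BU 1 and 22.6% against 10.9% in BU 2 (unthinned 26.4% against 13.1%, and 82.1% against 57.8%).

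Nanos3 and Lin28a were also found in the same cells. Over all kept cells at 5000 UMIs, a Nanos3 UMI was present in 49.1% of the cells with a Lin28a UMI and in 36.5% of those without in CTRL 1. The shares were 44.4% and 27.2% in CTRL 2, 23.0% and 11.2% in BU 1 and 28.3% and 13.2% in BU 2. The share was higher in cells with Lin28a in each library, and no test was made because cells of 1 library are not replicates and the classes differ in both genes. Sox3+ cells hold more of both, as given above. Of the cells with a Nanos2 UMI, 78.5%, 60.9%, 66.7% and 64.4% held Dnd1 in CTRL 1, CTRL 2, BU 1 and BU 2, against 72.0%, 53.1%, 60.3% and 47.7% of those without. Nanos3 was likewise found in more of the cells with Nanos2 in each library (43.0% against 41.2%, 41.3% against 32.2%, 23.5% against 12.5% and 18.6% against 14.5%). The cells compared include some without a Dazl UMI, 150 in CTRL 2 and 168 in BU 2. Dnd1 was found in 11.3% and 14.9% of these, against 60.8% and 54.2% of the cells with Dazl. Their part in the differences between cells with and without Nanos2 was not tested. Gfra1 UMIs were present in 19.2% and 26.1% of the cells with Nanos2 against 12.1% and 14.2% of those without in CTRL 1 and CTRL 2, but in 27.2% against 30.2% in BU 1 and in 33.9% against 27.0% in BU 2.

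The genes most like each member were found by the correlation of log2(CPM + 1) over the 12 sums of the 3 classes in 4 libraries, after subtraction of each library's mean, among 8858 genes of at least 10 CPM. These are descriptions over sums that share cells and depth. Mbnl2, an RNA splicing regulator, was closest to Nanos3 (r = 0.974), followed by Impa2 (0.970) and Zswim1 (0.966). Lin28a was closest to Rspo4, a secreted activator of WNT signalling (0.970), Sntg2 (0.966) and Stx6 (0.960). Dnd1 was closest to Mat2b, a regulatory subunit of methionine adenosyltransferase (0.990), Lzts2 (0.972) and Exosc8 (0.971). For Lin28b the closest were Eif4enif1, Srpk1 and Nelfe (0.979, 0.979 and 0.976), and for Dazl Acsl3, Copb2 and Ppp1r12a (0.965, 0.952 and 0.948). Nanos2 averaged 8.74 CPM and was under the floor. The values above were picked as the highest of 8858 and are no yardstick for a fixed pair of genes. Between the other members themselves r ran from -0.579 for Dazl and Dnd1 to 0.667 for Nanos3 and Lin28a, with 0.10 for Lin28a and Lin28b.

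The Gfra1+ cells were further divided by cell cycle. Gfra1+ cells with at least 3 UMIs over 7 mitotic genes at 5000 UMIs (cycling) numbered 259, 83, 581 and 327 in CTRL 1, CTRL 2, BU 1 and BU 2, and those with none (non-cycling) 68, 42, 61 and 78. Dazl was the gene of the 6 that passed, higher in cycling cells (0.41 ± 0.11, log2, edgeR adjusted p = 0.0225) where 19.5% of 10842 genes passed. Its level went from 1148 to 1299 CPM in CTRL 1, from 644 to 1084 CPM in CTRL 2, from 1640 to 1669 CPM in BU 1 and from 783 to 1099 CPM in BU 2. It was thus mainly in experiment 2 that the states differed. Somatic-like cells also held Gfra1 RNA, at 90.9 and 89.3 CPM in CTRL 1 and CTRL 2 and at 174 and 132 CPM in BU 1 and BU 2. The Gfra1+ sums can therefore include such cells, which held little Dazl. Their part in this contrast, apart from that of spermatid-like cells, was not tested. The call was lost without CTRL 2 (0.29, adjusted p = 0.0992), without BU 2 (0.34, adjusted p = 0.141) and without the spermatid-like and somatic-like cells (0.17, adjusted p = 0.0904).

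Nanos2 was lower in cycling Gfra1+ cells in 3 of the 4 libraries, going from 30.3 to 12.9 CPM in CTRL 1, from 20.8 to 8.97 CPM in CTRL 2 and from 14.7 to 10.4 CPM in BU 2. In BU 1 the non-cycling value of 3.48 CPM rests on 2 UMIs. The difference was -0.58 ± 0.34 (edgeR adjusted p = 0.255) and passed when the spermatid-like and somatic-like cells were left out (-0.91, adjusted p = 0.00560), as did Dnd1 (-0.30, adjusted p = 0.0107). In that alternative 1743 of 10146 genes passed. Nanos3 and Lin28a did not differ between the states beyond error (-0.07 ± 0.19 and 0.17 ± 0.18, adjusted p = 0.847 and 0.555). In non-cycling cells Nanos3 was at 92.8 and 54.1 CPM in CTRL 1 and CTRL 2 and at 26.1 and 27.5 CPM in BU 1 and BU 2. In cycling cells it was at 68.9 and 38.6 CPM in CTRL and at 26.1 and 37.3 CPM in BU, where the values of experiment 2 were nearly equal. Lin28a was lower in BU in both states of both experiments, with ratios of 0.336 to 0.546.

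**Figure D5:**
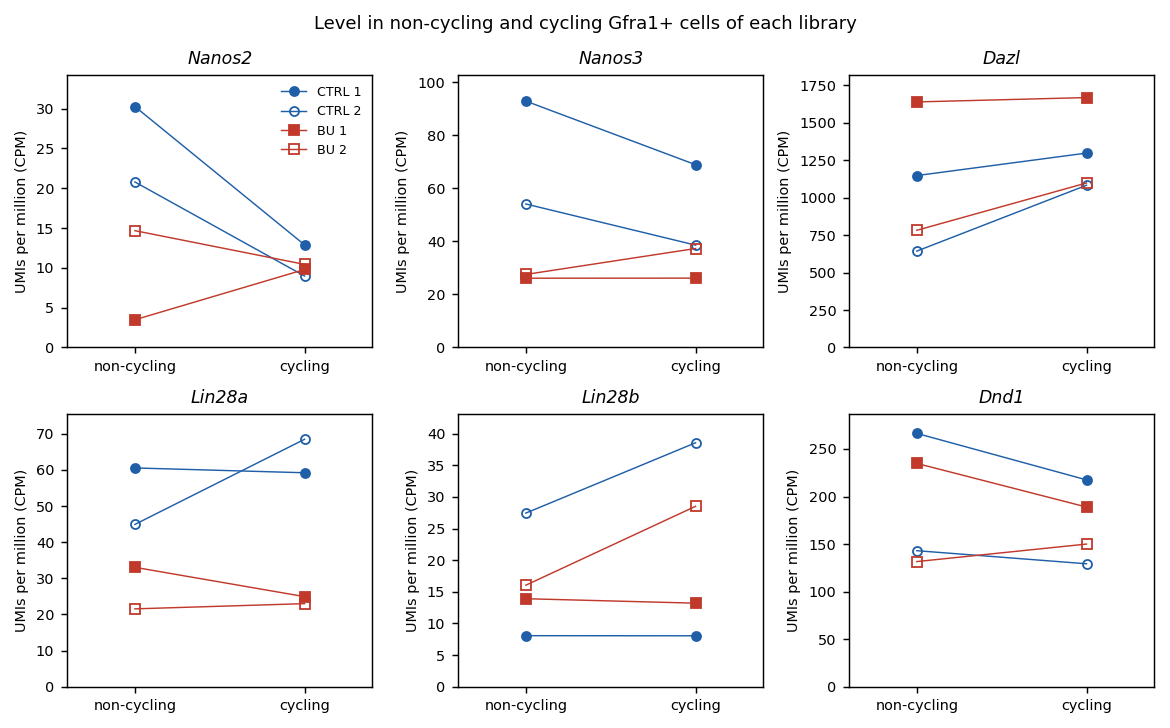
Level of each gene (CPM, linear axis from 0) in non-cycling and cycling Gfra1+ cells, with a line for each library. The non-cycling Nanos2 value of BU 1 rests on 2 UMIs. Dazl is higher in cycling cells in each library, most so in CTRL 2 (644 and 1084 CPM), and Lin28a is lower in both BU libraries than in both CTRL libraries in either state.

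The LIN28 proteins act on let-7, a family that the libraries do not measure since mature microRNAs have no poly(A) tail. The mature sequences are shown because transcripts that pair with the seed are the family's targets, and LIN28 proteins are thereby linked to the genes tested next. Capitals mark the seed, bases 2 to 8 from the 5′ end (RefSeq, GRCm38.p6). The sequences are those of the gene copies Mirlet7a-1 (chr13:48538239-48538260, minus strand), Mirlet7g (chr9:106178846-106178867, plus strand), Mirlet7i (chr10:122985698-122985719, minus strand) and Mir7j (chr3:140028281-140028304, plus strand). Of the 10 mature let-7 names in the table, 9 share the seed of let-7a-5p, and let-7j differs in the last seed base.
let-7a-5p: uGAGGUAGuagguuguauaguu
let-7g-5p: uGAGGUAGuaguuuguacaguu
let-7i-5p: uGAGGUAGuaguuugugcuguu
let-7j: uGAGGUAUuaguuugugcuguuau

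Among 14 known let-7 targets, 2 rose and 0 fell in all kept cells after BU with the replicate block (14.3% of the list, against 1.49% of all genes, median log2 fold change 0.29 against 0.04). They were the D-type cyclins Ccnd1 (1.62 ± 0.20, edgeR adjusted p = 0.0289) and Ccnd2 (1.23 ± 0.17, adjusted p = 0.0298). In Sox3+ cells 3 of 13 rose, Ccnd1 (1.90 ± 0.17), Ccnd2 (0.83 ± 0.15) and the phosphatase gene Cdc25a (1.35 ± 0.23), and in Kit+ cells 1 of 12, Ccnd1 (1.88 ± 0.34), against 5.69% and 0.952% of all genes. In Gfra1+ cells 0 of 14 was called with the block, against 0.066% of all genes. None was called without the block. The list was chosen with earlier results of these data known, so its share of calls is no test of let-7. The study reports Ccnd1 and Cdc25a as higher after BU, among the cell cycle targets of FOXM1. The 9 genes of let-7 processing and LIN28 partners held 0 calls in all kept, Gfra1+, Sox3+ and Kit+ cells. Between Sox3-only and Gfra1-only cells, 2 of 12 let-7 targets were higher (Cdk6, 2.66 ± 0.29, and Mycn, 1.5 ± 0.18) and 3 lower (Ccnd2, -1.73 ± 0.34, Ccnd1, -1.01 ± 0.24, and Igf2bp1, -0.66 ± 0.12), so the list did not move in 1 direction where Lin28a rose. The calls made up 41.7% of the list, against 13.6% of all genes.

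The partners of the NANOS proteins held no call in the BU comparisons, in which few genes of any kind were called. The condition-only fits called 0.0% of all genes and the blocked fits 0.066% to 5.69%, so a list of 19 need not hold a call. None of the 19 genes of the CCR4-NOT complex, decapping and the PUM proteins was called between BU and CTRL in any class with or without the block. Nor was any called between Sox3-only and Gfra1-only cells, where 13.6% of all genes passed. The median log2 fold change of the list was 0.05 in all kept cells with the block and -0.08 in Sox3+ cells. In Kit-only cells 2 of the 19 were lower than in Sox3-only cells (10.5% of the list, against 14.7% of all genes), the CCR4-NOT subunits Cnot2 (-0.93 ± 0.20, edgeR adjusted p = 0.0157) and Cnot11 (-0.91 ± 0.25, adjusted p = 0.0346). Against Gfra1-only cells 3 were lower, Cnot11 (-1.15 ± 0.24), Cnot6l (-1.06 ± 0.20) and Cnot2 (-1.0 ± 0.20), and 1 higher, the decapping enzyme Dcp2 (0.51 ± 0.15), 21.1% of the list against 23.4% of all genes. Between cycling states 3 of the 19 were higher in cycling cells (Dcp2, 0.87 ± 0.19, Edc4, 0.72 ± 0.15, and Cnot1, 0.45 ± 0.12), 15.8% against 19.5% of all genes. Trim71, an RNA-binding ubiquitin ligase, was lower in Kit-only than in Sox3-only cells (-0.86 ± 0.14, adjusted p = 0.00479). It was the 1 call of its list of 9 in that contrast, 11.1% against 14.7% of all genes.

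Of 18 other germline RNA-binding protein genes, Elavl2 was the 1 called after BU, higher in all kept cells (1.19 ± 0.20, edgeR adjusted p = 0.0409) and in Sox3+ cells (1.11 ± 0.16, adjusted p = 0.0299) with the block. This is 5.56% of the list, against 1.49% of all genes in all kept cells and 5.69% in Sox3+ cells. The share in Sox3+ cells was thus no higher than that of all genes. Elavl2 and Rbpms were the 2 of 18 called between Gfra1-only and Sox3-only cells, both lower in Sox3-only cells (-1.06 ± 0.14 and -0.68 ± 0.11), and their share of 11.1% was under the 13.6% of all genes. In Kit-only against Gfra1-only cells 3 rose and 5 fell (44.4% of the list, against 23.4% of all genes), among them Rbpms (-1.67 ± 0.14), Meioc, a meiosis regulator (1.48 ± 0.39), and Rbpms2 (-1.28 ± 0.27). In cycling against non-cycling Gfra1+ cells 7 rose, such as Meioc (1.27 ± 0.32) and the DAZ family gene Boll (0.79 ± 0.18), and 1 fell, Ybx2 (-1.10 ± 0.21), again 44.4% of the list, against 19.5% of all genes. Boll therefore had the sign of Dazl in this contrast, whose sums include the spermatid-like and somatic-like cells.

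The 8 differentiation and meiosis genes linked to NANOS2 and DAZL moved in both directions after BU. Neurog3 is also a progenitor marker here. With the block, Stra8, the gene of meiotic entry, rose (1.27 ± 0.21 in all kept and 1.99 ± 0.16 in Sox3+ cells, edgeR adjusted p = 0.0401 and 0.0176). Neurog3 fell (-2.58 ± 0.27 and -1.72 ± 0.20, adjusted p = 0.0205 and 0.0232), as did Sohlh1 (-1.01 ± 0.17 and -0.69 ± 0.13, adjusted p = 0.0466 and 0.0424). These were 3 of 8 in both sets of cells, against 1.49% and 5.69% of all genes, and none was called without the block. This list too was chosen with earlier results of these data known, and the study reports Neurog3 and Sohlh1 as lower after BU. The share is thus no test of a link to NANOS2 or DAZL. From Gfra1-only to Sox3-only cells Neurog3 (3.25 ± 0.34) and Sohlh1 (1.52 ± 0.21) rose in the direction of Nanos3 and Lin28a. In Kit-only against Sox3-only cells Stra8 was higher (1.65 ± 0.34), and Neurog3 (-1.89 ± 0.43) and Tex19.1 (-0.68 ± 0.19) were lower.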

How the data were processed

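Single-cell RNA from 4 libraries, 2 CTRL and 2 BU, was counted by the authors. The deposited matrices hold raw UMI counts per gene and cell, not normalized, written by Cell Ranger 3.0.2 per the file headers. The submitters' processing notes also name Seurat 3.2 and the build GRCm39, whereas the study's methods name mm10, so no coordinate was read from the matrices, and the coordinates given are those of GRCm38. Depth limits the precision of single cells: the median kept cell held 8066 to 34177 UMIs. Intervals and limits cover counting error only.

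Cells with over 1000 genes and under 20% mt- UMIs were kept, and no doublet caller was run. Cells with the highest 5% of UMIs were left out as an alternative. A cell was Gfra1+, Sox3+ or Kit+ where its share of UMIs for that gene, times 100000, gave ln(1 + x) above 2. Spermatid-like cells held at least 10 UMIs of 6 markers and over 10 times the library's median share, and somatic-like cells at least 2 of 10 markers and 0.1% of UMIs. Thinning drew 5000 UMIs per cell.

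UMIs were summed per library and class over the 27514 genes common to the lists of 27998 and 31053 genes. Sums were tested with edgeR 4.0.16 in R 4.3.3 (quasi-likelihood, TMM, filterByExpr) and Benjamini-Hochberg adjustment at 0.05 over all genes tested. BU against CTRL used condition only, and the experiment as a replicate block was the alternative. The labels tie each experiment number to its own sequencing lane and kit version (the study's methods name a single kit version), so the numbers pair the libraries, and over 17354 genes CTRL 1 and BU 1 departed from the means of their groups together (r = 0.779). The experiment is therefore also a batch, and values are given within it. Contrasts of classes and of cycling state had the library as a term. The alternatives were DESeq2 1.42.0, no filter on low counts, mt- UMIs under 10%, leaving out high-UMI cells, spermatid-like and somatic-like cells or each library in turn, classes set on thinned cells, and other handling of cells in more than 1 class. Leaving out cells of shared barcodes, and the block combined with another alternative, were added after the data were seen. The edgeR scripts were tested on simulated data.

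The 6 genes and the lists of related genes were chosen with earlier results of these data known. Named were all 6 genes, part of the listed genes that passed in a contrast, and the 3 genes most like each member. A list left unmentioned in a contrast can hold calls. In cycling Gfra1+ cells 4 of 7 tested differentiation and meiosis genes were higher (57.1%, against 19.5% of all genes). Of 12 let-7 targets 33.3% passed between Kit-only and Sox3-only cells, against 14.7% of all genes. Sequences came from RefSeq tables of GRCm38.p6, and gene places from GENCODE M21. A promoter of Dnd1 is not reported here.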

Additional observations from a re-analysis of the deposited data

How the results depend on the processing

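Each result rests on 2 libraries per group, each of 3 pooled mice, and the experiments differ in lane and depth, and which BU effects passed depended on the block, the tool and the filter. Of 768 estimates for single genes under alternatives, 635 kept their direction and their side of the threshold, 65 passed newly, 28 no longer passed and 40 changed sign. The condition-only BU fits and the interaction called 0 of the 6 genes, so they had no call to lose. Calls to lose were 2 for Sox3-only against Gfra1-only cells, 4 for Kit-only against Sox3-only, 3 for Kit-only against Gfra1-only and 1 between cycling states. The 28 belong to these contrasts. The 635 include genes uncalled in both fits and do not measure how stable the calls were. None of those that changed sign passed the threshold, and for none had the gene been called. Kit-only cells of CTRL and low counts of Nanos2 and Lin28b limit those contrasts. Leaving out a library together with the block was not run, since no residual degrees of freedom remain. Where a group was left with 1 library, it was assumed to vary like the other.

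The number of the 6 genes called between BU and CTRL went from 0 to 2 in all kept cells with the replicate block, alone or with DESeq2 or without the doubtful cells, and with DESeq2 alone. In Gfra1+ cells it stayed at 0 with the replicate block and was 1 with the block and DESeq2 or without spermatid-like and somatic-like cells, and 2 with the block and classes from thinned cells. In Sox3+ cells it was 2 with the replicate block, DESeq2 or no filter, and 1 with the block and cells of 1 class, and 0 to 3 when 1 library was left out. In Kit+ cells it was 2 with the replicate block or no filter, 1 with DESeq2, 0 with the block and cells of 1 class, and 0 to 3 when 1 library was left out. Without the replicate block the counts between classes were 0 instead of 2 for Sox3-only against Gfra1-only cells, 1 instead of 4 for Kit-only against Sox3-only, 1 instead of 3 for Kit-only against Gfra1-only and 0 instead of 1 for cycling against non-cycling cells. DESeq2 or leaving out spermatid-like and somatic-like cells gave 4 for the first, classes from thinned cells gave 1 for the third, and leaving out those cells gave 2 for the last. Leaving out 1 library gave 2 to 4, 0 to 5, 0 to 3 and 0 to 1 in the same order. The interaction had 0 in each alternative.

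Over all genes, the calls between BU and CTRL with the block were 258 in all kept, 9 in Gfra1+, 822 in Sox3+ and 105 in Kit+ cells, against 0 without the block. With the cells of shared barcodes left out, the blocked calls were 1461, 51, 1229 and 385 in the same order. For Sox3-only against Gfra1-only cells the 1663 calls became 417 without the replicate block, 4205 without spermatid-like and somatic-like cells and 3349 without CTRL 2. The 1801 calls of Kit-only against Sox3-only cells became 78 without the block, 84 without BU 1 and 3 without BU 2, and the 2856 against Gfra1-only cells became 907, 609 and 665. For the cycling contrast 2113 became 269 without the block.

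Without thinning, the difference in share between BU and CTRL was -0.331 points for Nanos2 and -11.7 for Nanos3 in Gfra1+ cells, and -5.79 for Nanos2, -35.9 for Nanos3, -1.46 for Dnd1 and -0.088 for Dazl in Sox3+ cells. That of Dazl changed sign from 0.868.

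Signs changed in these uncalled log2 estimates. For BU against CTRL these were Lin28b in Gfra1+ cells with classes from thinned cells (-0.055), and Dnd1 in Kit+ cells without spermatid-like and somatic-like cells (-0.0065, and -0.0080 with the block) and with classes from thinned cells (-0.24, and -0.29 with the block). Between Sox3-only and Gfra1-only cells Dazl was 0.027 with no filter and 0.021 with cells counted in each class. Between Kit-only and Sox3-only cells Dazl was 0.0084 with DESeq2, 0.0050 without high-UMI cells and 0.18 without spermatid-like and somatic-like cells. Between Kit-only and Gfra1-only cells Dazl was 0.10 without those cells and 0.020 with cells counted in each class, and Lin28a -0.050 without the block and -0.025 with no filter. In the interaction Nanos2 was -0.042 with no filter and -0.29 with cells counted in each class, Dazl 0.0031 and Lin28b 0.35 with classes from thinned cells, and Lin28b 0.49 with cells counted in each class. Between cycling states Nanos3 was 0.044 and Dnd1 0.030 with no filter, and Lin28a -0.11 without spermatid-like and somatic-like cells.

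Leaving out 1 library turned the sign within these ranges. In all kept cells Nanos2 ran from -0.60 to 0.19, Lin28b from -0.24 to 1.5, Dnd1 from -0.89 to 0.075 and Dazl from -0.24 to 0.82. In Gfra1+ cells Lin28b ran from -0.56 to 1.60 and Dnd1 from -0.43 to 0.30, in Sox3+ cells Lin28b from -0.0094 to 1.88, and in Kit+ cells Dnd1 from -0.21 to 0.57. Between classes Dazl ran from -0.047 to 0.015 and from -0.22 to 0.047 for Sox3-only against Gfra1-only and Kit-only against Sox3-only cells, and Lin28a from -0.017 to 0.17 for Kit-only against Gfra1-only cells. Between cycling states Nanos3 ran from -0.33 to 0.085 and Lin28a from -0.027 to 0.30. In the BU comparisons these fits left 1 library in a group and had no term for the experiment, so BU and experiment cannot be told apart. The cause was not tested.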
